A study of Mus musculus with 2 samples.

Results

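Sox proteins are transcription factors that share a DNA-binding HMG box, and 10 of their genes are described here among the 32285 genes counted in single cells of the embryonic mouse cortex. The members were the rows with the symbols Sox1, Sox2, Sox3, Sox4, Sox11, Sox5, Sox6, Sox9, Sox10 and Sox17, and all 10 were found. The cells came from the dissected dorsal telencephalon, the region that forms the cerebral cortex, of mouse embryos at embryonic day 16.5. The series concerns the loss of Dot1l, a gene for a histone methyltransferase, in cells that express Cre from the Emx1 locus. Both libraries used here carry the label WT and are called WT replicate 1 and WT replicate 6. No knockout library was analysed here, so that the comparisons are between cell classes of WT embryos. Whether the WT embryos carried Cre or a floxed allele was not given in the sources used here.

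The family is divided by sequence into groups with different roles in the embryonic brain. SoxB1 factors (Sox1, Sox2 and Sox3) keep neural progenitors undifferentiated, whereas SoxC factors (Sox4 and Sox11) activate neuronal genes as cells leave the cell cycle. SoxD factors (Sox5 and Sox6) lack an activation domain of their own and modify the action of other Sox proteins, SoxE factors (Sox9 and Sox10) act in neural stem cells and glia, and SoxF factors, including Sox17, act in blood vessels.

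The libraries held 14136 and 13046 cells with 74930397 and 68964234 unique molecular identifiers (UMIs), each of which marks 1 captured mRNA molecule. After filtering, 7219 and 7352 cells were used. Xist, which is made in female cells, had 76258 UMIs in the first library and 10 in the other, so the libraries came from different embryos. Ddx3y, a Y-linked gene, had 5 and 2193 UMIs. The embryos thus differed in sex, and sex cannot be told apart from library. Among the used cells, 19 barcodes occurred in both. Cells were assigned to classes by markers that included no Sox gene. Radial glia, the stem cells of the cortex, numbered 263 and 253, and the intermediate progenitors that arise from them numbered 177 and 163. Excitatory neurons numbered 2509 and 2825. The inhibitory lineage held 242 and 239 cycling progenitors and 1380 and 1387 neurons. Oligodendrocyte precursors were few, with 29 and 22 cells, and endothelial cells numbered 67 and 43. The markers left 30.2% and 28.0% of the cells without a class. Microglia (71 and 72 cells) and erythroid cells (31 and 41 cells) served to show how many Sox UMIs were seen in cells outside the neural lineages. The 6 radial glia markers summed to 1967 and 1980 CPM (UMIs per 1000000 UMIs of the class) in radial glia, 407 and 375 CPM in intermediate progenitors, 375 and 842 CPM in oligodendrocyte precursors and 35.4 and 23.2 CPM in microglia. Cycling inhibitory-lineage progenitors and neurons with markers of the lateral ganglionic eminence (LGE), a ventral structure, were present although the labels name a dorsal dissection.

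Levels below are CPM of the summed cells of a class, given for WT replicate 1 and then WT replicate 6. Median depth ranged from 4053 UMIs per cell in inhibitory neurons of WT replicate 6 to 11057 in endothelial cells of the same library. Shares of cells with a UMI were therefore taken after each cell had been thinned to 1500 UMIs, and they are given over both libraries with a 95% Wilson interval that covers counting error only. Differences between classes are log2 differences between sums, with the standard error (SE) and an adjusted p from edgeR's quasi-likelihood test (n = 2 libraries, Benjamini-Hochberg over all genes tested). A gene was called at an adjusted p under 0.05. The p-values measure only the spread between these 2 libraries.

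**Figure D1:**
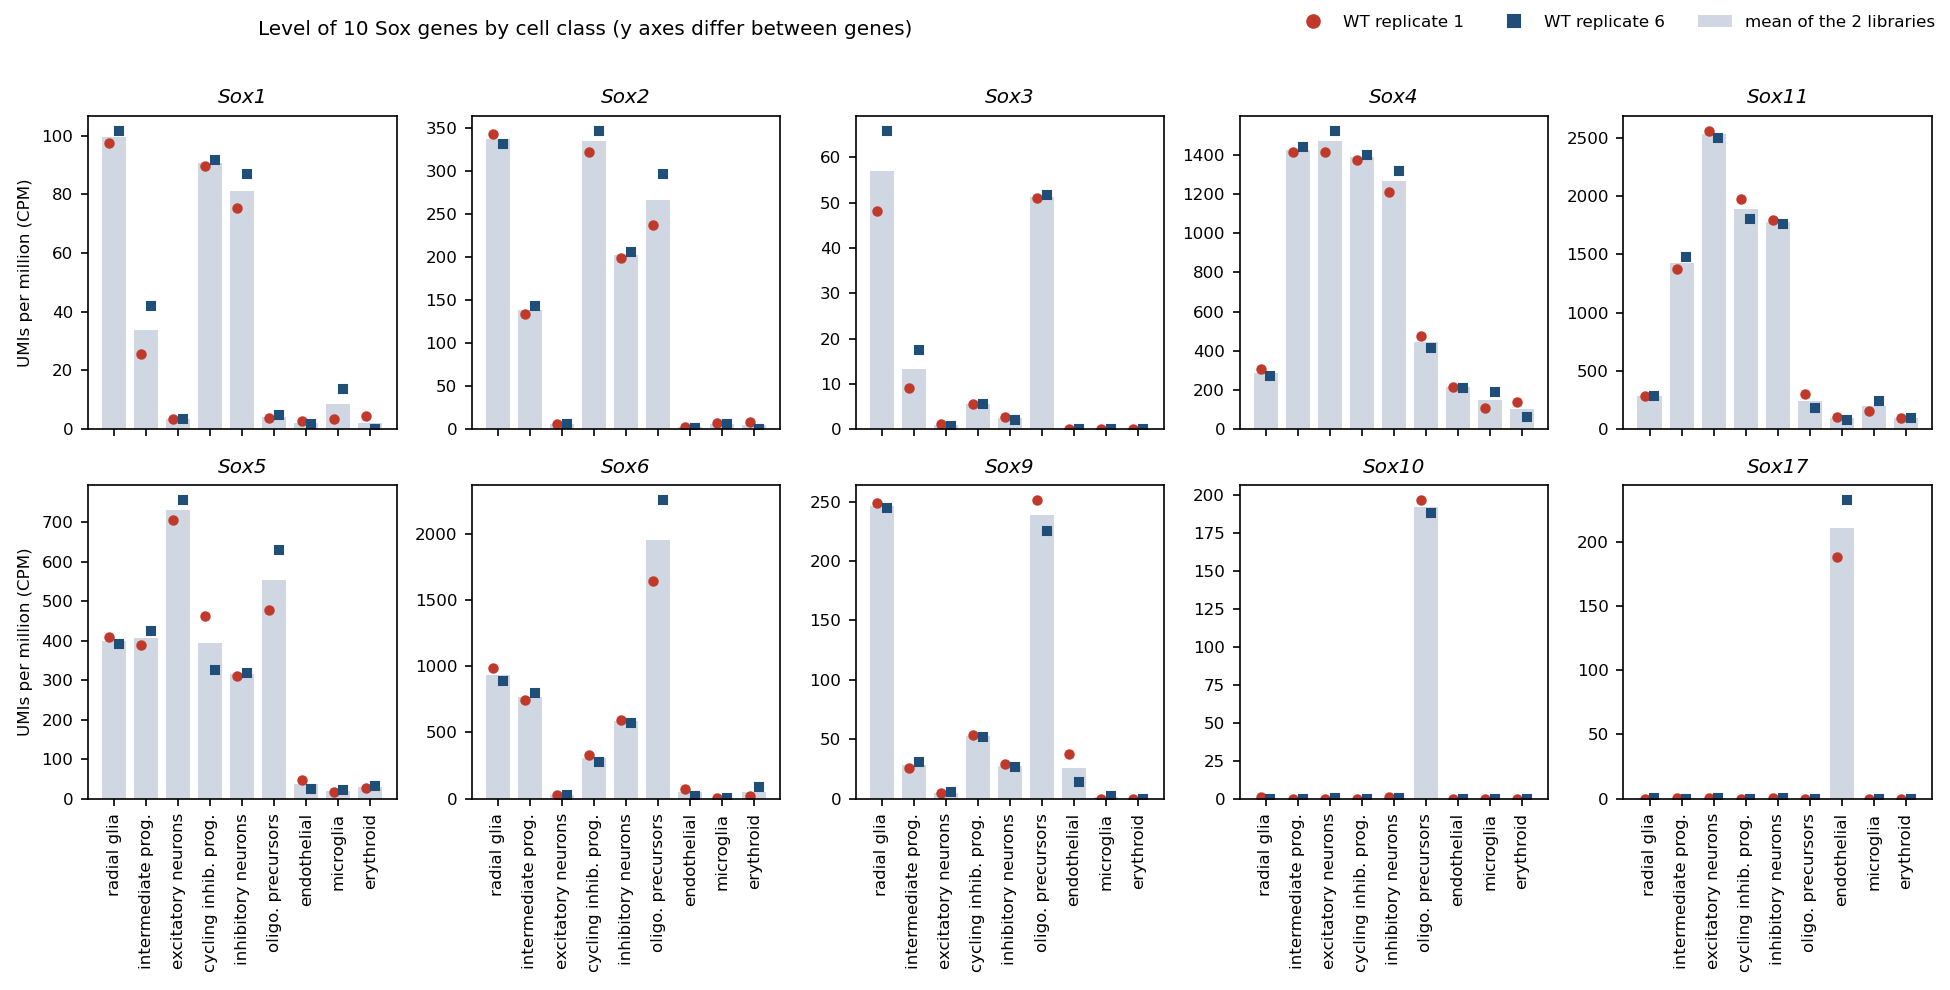
Level of each Sox gene in CPM (linear y axes, which differ between genes) in 9 cell classes, with a point for each of the 2 libraries and a bar for their mean. Sox2 reached 343 and 331 CPM in radial glia and stayed near 6 CPM in excitatory neurons, while Sox10 and Sox17 each stood out in 1 class.

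All members but 1 are autosomal. In build GRCm38.p6, Sox3 lies at chrX:60891366-60893430, Sox9 at chr11:112782210-112787757, Sox10 at chr15:79154913-79164490 and Sox17 at chr1:4490928-4497426, and RefSeq places no other gene over these 4. Sox11 lies at chr12:27334268-27342718, also without an overlapping gene. Sox2 at chr3:34649995-34652461 lies within the noncoding gene Sox2ot, Sox1 at chr8:12395519-12399555 within Sox1ot, and Sox4 at chr13:28948919-28953699 overlaps the predicted gene Gm46405. The SoxD genes are long: Sox5 at chr6:143828425-144782287 spans 953863 bases and Sox6 at chr7:115470872-116040776 spans 569905 bases, each with noncoding or predicted genes inside it. Where genes overlap, reads that fall in both could have affected the deposited counts of either, which was not tested.

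The SoxB1 and SoxC genes changed in opposite directions between radial glia and excitatory neurons, so the sequences just upstream of their transcription starts are shown for the 4 of these genes that the promoter table holds. Each sequence covers the 250 bases before the RefSeq start in build GRCm38.p6, the patch release of the mm10 build named in the labels, written 5′ to 3′ on the gene's strand. Sox1 (plus strand) is read from chr8:12395269-12395518, Sox2 (plus strand) from chr3:34649745-34649994, Sox4 (minus strand) from chr13:28953700-28953949 and Sox11 (minus strand) from chr12:27342719-27342968. Capitals mark matches, on either strand (CCAAT then reads ATTGG), to the Sox motifs ACAATG and ACAAAG, the POU octamer ATGCAAAT, the CCAAT box and the TATA motif TATAAA.
Sox1: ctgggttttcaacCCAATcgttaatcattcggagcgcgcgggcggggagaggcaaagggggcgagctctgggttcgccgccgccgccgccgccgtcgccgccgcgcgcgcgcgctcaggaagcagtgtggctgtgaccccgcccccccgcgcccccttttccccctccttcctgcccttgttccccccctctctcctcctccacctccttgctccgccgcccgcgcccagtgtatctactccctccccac
Sox2: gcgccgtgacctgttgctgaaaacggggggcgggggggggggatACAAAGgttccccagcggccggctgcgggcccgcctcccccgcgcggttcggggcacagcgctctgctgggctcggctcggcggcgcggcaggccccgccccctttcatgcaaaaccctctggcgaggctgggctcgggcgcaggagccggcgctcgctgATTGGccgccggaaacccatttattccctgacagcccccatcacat
Sox4: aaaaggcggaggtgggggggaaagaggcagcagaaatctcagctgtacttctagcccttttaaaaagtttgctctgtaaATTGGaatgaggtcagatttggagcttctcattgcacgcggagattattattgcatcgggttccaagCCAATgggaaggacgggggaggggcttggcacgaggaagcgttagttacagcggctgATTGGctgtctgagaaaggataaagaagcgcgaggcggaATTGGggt
Sox11: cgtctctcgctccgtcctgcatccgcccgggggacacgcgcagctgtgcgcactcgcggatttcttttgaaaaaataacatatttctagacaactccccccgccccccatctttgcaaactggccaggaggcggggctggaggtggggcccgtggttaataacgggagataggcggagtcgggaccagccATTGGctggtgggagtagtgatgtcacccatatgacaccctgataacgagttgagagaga

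CCAAT was present in all 4 of these windows, with 4 matches in Sox4 and 1 in each of the others, and in 33.8% of all 32851 promoter windows of the same length. In Sox2, Sox4 and Sox11 a CCAAT match on the opposite strand began 46, 47 and 60 bases before the start. The Sox2 window alone held a Sox motif, ACAAAG, which 16.5% of all windows hold. No window of the 4 held ACAATG, ATGCAAAT or TATAAA, which were found in 10.7%, 1.60% and 12.4% of all windows. The SoxB1 windows were richer in G and C, with 71.2% in Sox1 and 72.0% in Sox2, than those of Sox4 at 50.8% and Sox11 at 58.0%, where the median of all windows was 52.4%. CpG dinucleotides numbered 29 in Sox1, 27 in Sox2, 11 in Sox4 and 17 in Sox11, beside a median of 6. A match is a description of letters, not a bound site.

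The SoxB1 genes and Sox9 fell along the excitatory lineage, from radial glia through intermediate progenitors to neurons. Sox2, which maintains neural stem cells, measured 343 and 331 CPM in radial glia, 134 and 144 CPM in intermediate progenitors and 6.26 and 6.04 CPM in excitatory neurons. The classes did not overlap, and the excitatory level was close to the 7.09 and 5.80 CPM of microglia, which rest on few UMIs in 71 and 72 cells. Sox1 measured 97.4 and 102 CPM in radial glia, 25.6 and 41.9 CPM in intermediate progenitors and 3.41 and 3.46 CPM in excitatory neurons. Sox3, an X-linked SoxB1 gene, was sparse and measured 48.1 and 65.9 CPM, 9.09 and 17.4 CPM, and 1.08 and 0.802 CPM in these 3 classes. Sox9, which acts in neural stem cells and later in the start of gliogenesis, measured 249 and 245 CPM in radial glia and dropped to 26.1 and 30.9 CPM already in intermediate progenitors. In excitatory neurons Sox9 was at 4.45 and 5.74 CPM.

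Radial glia were compared with intermediate progenitors to examine the first step out of the stem cell. Of the 10 members, 8 were tested, and 4 were higher and 2 lower in radial glia. Over all 11574 genes tested, 19.1% were called higher and 15.8% lower. Sox9 differed most, by 3.07 ± 0.14 (log2, SE; adjusted p = 7.26e-08), followed by Sox3 (2.08 ± 0.27; adjusted p = 0.000183), Sox1 (1.53 ± 0.19; adjusted p = 0.000102) and Sox2 (1.24 ± 0.11; adjusted p = 1.12e-05). The SoxC genes were lower in radial glia, Sox11 by -2.36 ± 0.11 (adjusted p = 1.07e-07) and Sox4 by -2.35 ± 0.12 (adjusted p = 1.9e-07). Sox6 differed by 0.24 ± 0.11 (adjusted p = 0.131), with a block for the library 0.24 ± 0.07 (adjusted p = 0.00434). Sox5 differed by -0.06 ± 0.11 (adjusted p = 0.701), and the sign turned when the radial glia were limited to the non-cycling ones. In that comparison, chosen after seeing the data, Sox5 was higher in radial glia by 0.59 ± 0.12 (adjusted p = 0.00114).

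**Figure D2:**
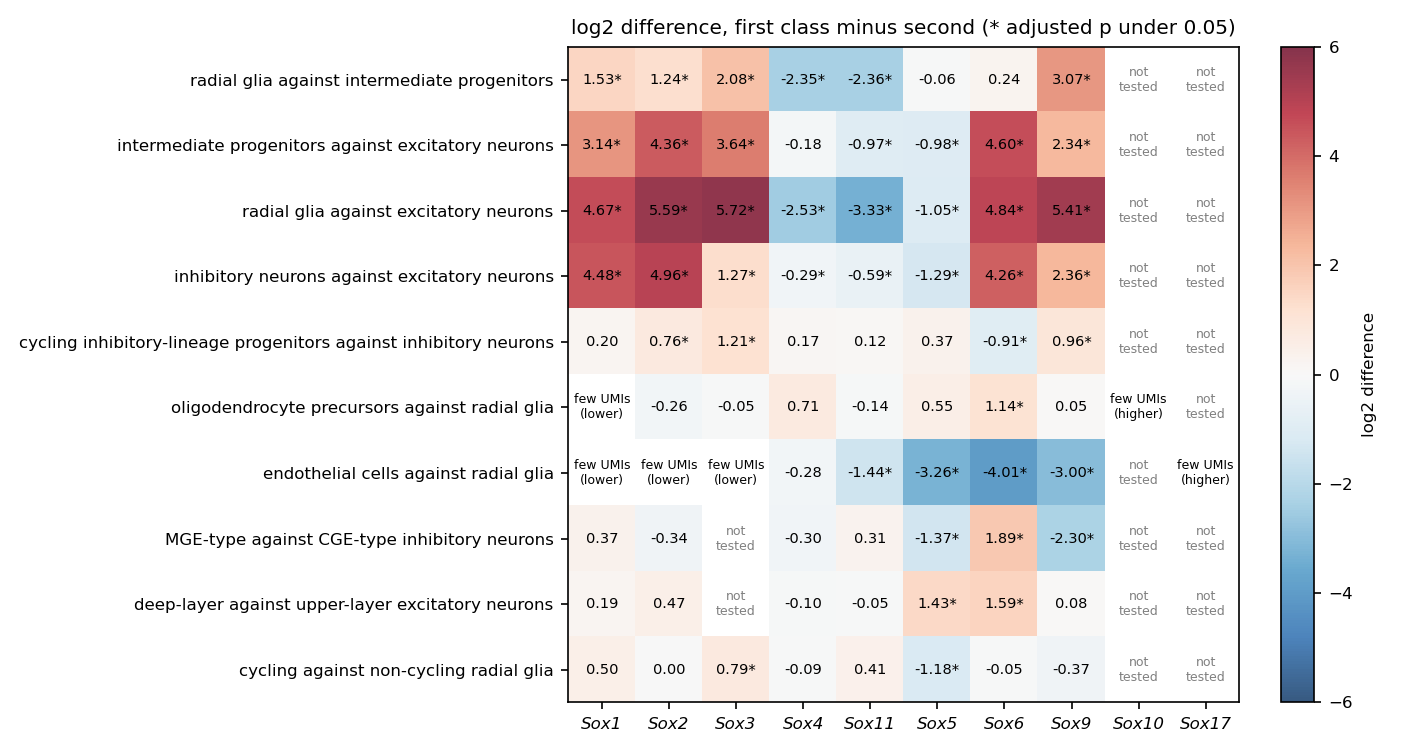
Log2 difference of each member in 10 comparisons of cell classes (colour from -6 to 6, number in each cell, first class minus second; an asterisk marks an adjusted p under 0.05). Cells marked few UMIs had at most 3 UMIs in 1 of the classes and show only the direction, and genes too low for the filter are marked not tested; Sox1, Sox2, Sox3 and Sox9 were higher and Sox4 and Sox11 lower in radial glia than in intermediate progenitors.

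The same genes fell again at the next step, from intermediate progenitors to excitatory neurons, and Sox6 fell with them. Again 8 members were tested, with 5 higher and 2 lower in intermediate progenitors, where 23.6% of 14774 genes were called higher and 25.9% lower. Sox2 was higher in intermediate progenitors by 4.36 ± 0.10 (adjusted p = 4.25e-08), Sox1 by 3.14 ± 0.25 (adjusted p = 1.99e-05) and Sox9 by 2.34 ± 0.22 (adjusted p = 5.1e-05). Sox3 was higher by 3.64 ± 0.41 (adjusted p = 0.000142), with within-library values of 2.90 and 4.22. Sox6, a SoxD gene of progenitors and interneurons, measured 990 and 886 CPM in radial glia, 748 and 795 CPM in intermediate progenitors and 27.4 and 30.3 CPM in excitatory neurons, a difference of 4.60 ± 0.09 (adjusted p = 3.48e-08) between the last 2 classes. Between radial glia and excitatory neurons, all 8 members tested were called, with Sox1, Sox2, Sox3, Sox6 and Sox9 higher by 4.67 to 5.72 and Sox4, Sox5 and Sox11 lower, where 31.0% of 15451 genes were called higher and 31.9% lower.

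The median log2 difference over the members tested was 0.74 between radial glia and intermediate progenitors, 2.74 between intermediate progenitors and excitatory neurons and 4.75 between radial glia and excitatory neurons. Over all genes tested the medians were -0.00, -0.06 and -0.05. In the other comparisons described below, the members' median was 1.82 between inhibitory and excitatory neurons, 0.28 within the inhibitory lineage, 0.05 for oligodendrocyte precursors and -3.26 for endothelial cells against radial glia, -0.30 between MGE-type and CGE-type neurons, 0.19 between deep and upper layers and -0.03 for cycling radial glia, where the medians of all genes lay between -0.06 and 0.00.

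The SoxC genes rose along this lineage. Sox11, an activator of neuronal genes, measured 285 and 285 CPM in radial glia, 1371 and 1472 CPM in intermediate progenitors and 2560 and 2500 CPM in excitatory neurons. It was thus lower in intermediate progenitors than in neurons by -0.97 ± 0.07 (adjusted p = 1.44e-05). Sox4 measured 307 and 271 CPM in radial glia, 1415 and 1439 CPM in intermediate progenitors and 1414 and 1523 CPM in excitatory neurons. The last 2 classes overlapped, and their difference was -0.18 ± 0.07 (adjusted p = 0.0786), with the library block -0.18 ± 0.04 (adjusted p = 9.2e-05). Sox4 was also called with no filter on low counts (-0.26; adjusted p = 0.0361) and with stricter cell filters (-0.22; adjusted p = 0.0461).

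Both SoxC genes also gave UMIs in cells outside the neural lineages. After thinning, Sox4 was seen in 23.8% of microglia (17.5 to 31.4%), 33.3% of radial glia (29.4 to 37.5%) and 85.1% of excitatory neurons (84.1 to 86.0%), and without thinning in 55.2%, 87.0% and 98.3%. For Sox11 the thinned shares were 17.5% (12.1 to 24.5%), 34.1% (30.1 to 38.3%) and 93.8% (93.1 to 94.4%), and the unthinned ones 53.8%, 83.9% and 99.4%. Endothelial cells, with 23.6% for Sox4 (16.7 to 32.4%) and 21.8% for Sox11 (15.1 to 30.4%), were within the interval of microglia. The part of free RNA in the endothelial and radial glia values was not tested. Within single cells, thinned UMIs of both SoxC genes were found together in 78.0% and 82.8% of excitatory neurons in the 2 libraries and in 10.3% and 13.4% of radial glia.

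**Figure D3:**
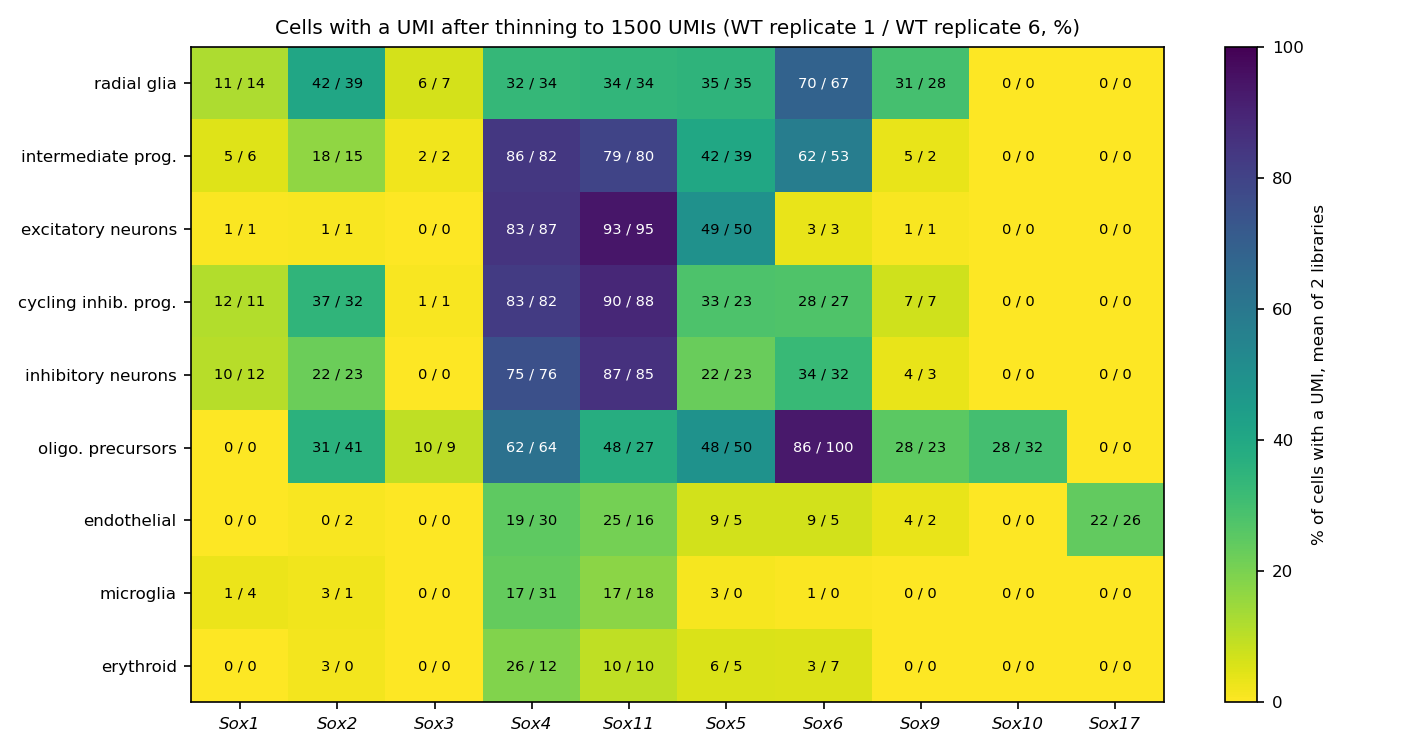
Percent of cells of each class with at least 1 UMI of each Sox gene after every cell was thinned to 1500 UMIs, with the values of WT replicate 1 and WT replicate 6 in each cell and the colour for their mean. Sox4 and Sox11 were seen in most neurons of both lineages, and also in 16.9 to 30.6% of microglia.

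Inhibitory neurons held far higher levels of Sox1, Sox2 and Sox6 than excitatory neurons. Inhibitory neurons are born in the ventral telencephalon and migrate into the cortex. In them Sox2 measured 199 and 206 CPM, Sox1 75.5 and 86.7 CPM and Sox6 595 and 575 CPM, and none of these values overlapped with those of excitatory neurons. Against excitatory neurons, Sox2 was higher by 4.96 ± 0.08 (adjusted p = 6.34e-09), Sox1 by 4.48 ± 0.11 (adjusted p = 2.75e-08), Sox6 by 4.26 ± 0.08 (adjusted p = 1.39e-08) and Sox9 by 2.36 ± 0.15 (adjusted p = 5.34e-06). Sox3 was higher by 1.27 ± 0.35 (adjusted p = 0.0204), at 2.73 and 2.06 CPM, and with DESeq2 its adjusted p was 0.0929. The SoxC genes and Sox5 were lower, Sox5 by -1.29 ± 0.07 (adjusted p = 1.79e-06), Sox11 by -0.59 ± 0.06 (adjusted p = 0.000111) and Sox4 by -0.29 ± 0.07 (adjusted p = 0.00922, or 0.151 when all classes shared a single fit). In all, 5 members were higher and 3 lower among 8 tested, where 20.9% of 15668 genes were called higher and 21.3% lower.

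The Sox2 signal of inhibitory neurons was spread over many cells. A thinned Sox2 UMI was found in 22.5% of inhibitory neurons (21.0 to 24.1%), 1.07% of excitatory neurons (0.826 to 1.38%) and 2.10% of microglia (0.716 to 5.99%), and the unthinned shares were 44.3%, 5.08% and 3.5%. The thinned excitatory share was thus within the interval of microglia. In 19.4% and 19.8% of inhibitory neurons Sox2 and Sox11 were found in the same cell. Sox2ot measured 3445 and 3834 CPM in inhibitory neurons and 519 and 473 CPM in radial glia, while Sox1ot measured 348 and 418 CPM and 221 and 200 CPM. The level of Sox2ot was thus higher in inhibitory neurons than in radial glia in both libraries, while the level of Sox2 was lower there.

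Within the inhibitory lineage, Sox2 and Sox9 were lower in neurons than in cycling progenitors, and Sox6 was higher. Sox2 measured 322 and 347 CPM in the cycling progenitors, which overlapped with radial glia, and was higher there than in inhibitory neurons by 0.76 ± 0.11 (adjusted p = 0.000135). Sox9, at 53.3 and 51.7 CPM, was higher by 0.96 ± 0.14 (adjusted p = 0.000205), and Sox3 by 1.21 ± 0.40 (adjusted p = 0.0288) on only 12 and 11 UMIs in the progenitors. The Sox3 call was lost with DESeq2, with doublets kept, with stricter cell filters and with stricter gates (adjusted p of 0.0752 to 0.17). Sox6 rose, from 330 and 278 CPM in progenitors to 595 and 575 CPM in the sum of all inhibitory neurons (-0.91 ± 0.13; adjusted p = 0.000163). The subsets described below differed, without a test. In both libraries Sox6 was above these progenitors in MGE-type and CGE-type neurons and below them in LGE-type neurons. Sox1, Sox4 and Sox11 differed by 0.12 to 0.20 and were not called, but with classes from clusters Sox1 was called at 0.38 ± 0.12 (adjusted p = 0.0194). Sox5 differed by 0.37 ± 0.16 (adjusted p = 0.075), and with the library block by 0.35 ± 0.13 (adjusted p = 0.0297). Sox5 was also called with no filter on low counts (0.32; adjusted p = 0.0428), with doublets kept (0.43; adjusted p = 0.0452) and with classes from clusters (0.64; adjusted p = 0.00902). Thus 3 members were higher and 1 lower, where 23.6% of 12969 genes were called higher and 24.0% lower.

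Whether the change from progenitor to neuron differed between the lineages was tested directly, as the change in the inhibitory lineage minus that in the excitatory lineage. The changes differed for 7 of the 8 members tested, 5 with a positive and 2 with a negative difference, where 10.1% of 13709 genes were called positive and 10.4% negative. The difference was largest for Sox6, at 5.59 ± 0.16 (adjusted p = 2.41e-09), since Sox6 was higher in the summed neurons of one lineage and lower in those of the other. This value holds for all 1380 and 1387 inhibitory neurons summed, many of which were in no subset. The MGE-type, CGE-type and LGE-type subsets held 225 and 257, 174 and 195, and 262 and 263 cells. In LGE-type neurons Sox6 was below the cycling progenitors. Sox2 followed with 3.68 ± 0.13 (adjusted p = 5.54e-09), Sox1 with 3.02 ± 0.24 (adjusted p = 2.89e-06), Sox3 with 2.51 ± 0.58 (adjusted p = 0.00802) and Sox9 with 1.46 ± 0.23 (adjusted p = 0.000702). The difference between lineages was negative for Sox5 (-1.27 ± 0.20; adjusted p = 0.000662) and Sox11 (-1.01 ± 0.13; adjusted p = 0.000113). Both genes were higher in excitatory neurons than in intermediate progenitors. Within the inhibitory lineage neither was called, although the alternatives above called Sox5 lower in neurons. For Sox4 the difference was -0.26 ± 0.12 (adjusted p = 0.157). It was called with DESeq2 (-0.30; adjusted p = 0.0369) and with no filter on low counts (-0.46; adjusted p = 0.013).

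**Figure D4:**
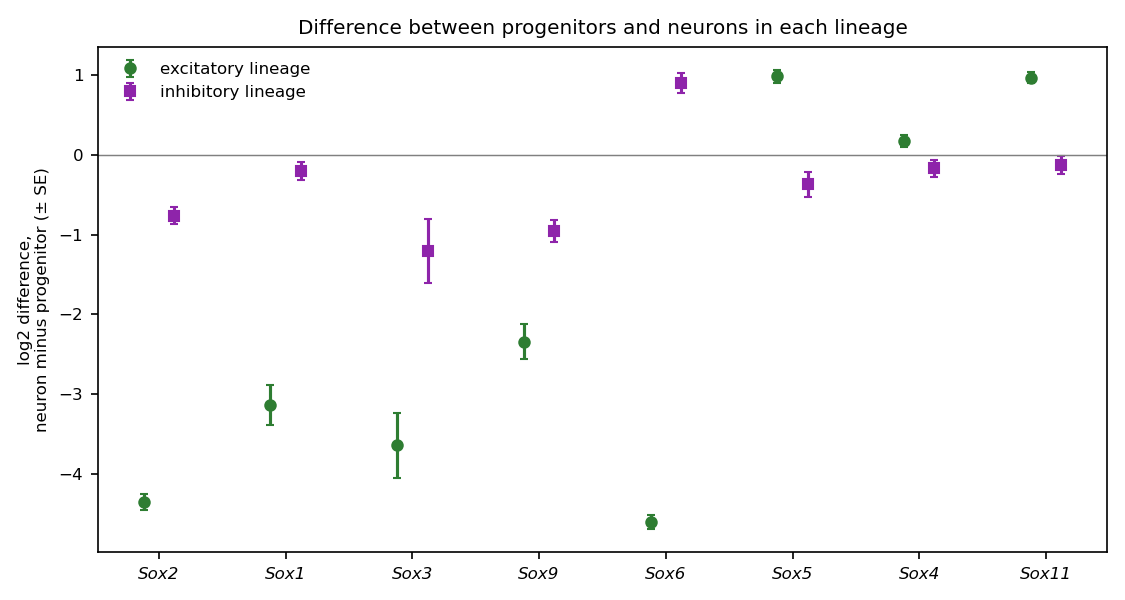
Log2 difference between neurons and progenitors (neuron minus progenitor, with SE, n = 2 libraries) for 8 Sox genes in the excitatory lineage (circles, intermediate progenitors to excitatory neurons) and the inhibitory lineage (squares, cycling progenitors to inhibitory neurons). Sox6 lay at -4.60 in the excitatory and 0.91 in the inhibitory lineage, and the points of Sox4 were closest together. All inhibitory neurons were summed, including those in no subset, and the subsets differed in Sox6.

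The SoxD genes differed between subsets of neurons. Sox5, which is needed for the identity of deep-layer projection neurons, measured 1141 and 1174 CPM in deep-layer excitatory neurons and 399 and 433 CPM in upper-layer ones. The difference was 1.43 ± 0.08 (adjusted p = 5.29e-07), and thinned Sox5 UMIs were found in 52.9% (49.1 to 56.6%) and 41.4% (39.2 to 43.6%) of the cells. Sox6 was also higher in deep-layer neurons, by 1.59 ± 0.25 (adjusted p = 0.00121), but at 23.0 and 44.5 CPM against 10.4 and 11.2 CPM, with within-library values of 1.07 and 1.94. Its thinned shares, 4.25% (2.97 to 6.03%) and 1.40% (0.960 to 2.05%), overlapped with the interval of 0.124 to 3.85% around the 0.699% of microglia. Of 7 members tested, these 2 were higher and none was lower, where 10.4% of 12798 genes were called higher and 5.16% lower. The remaining 5 had adjusted p-values of 0.35 to 0.944 by edgeR.

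Among inhibitory neurons, Sox5 and Sox6 differed in opposite directions between the MGE-type and CGE-type subsets. Neurons with markers of the medial ganglionic eminence (MGE), which include the later somatostatin and parvalbumin interneurons, had Sox6 at 1535 and 1479 CPM, while those with markers of the caudal ganglionic eminence (CGE) had 399 and 417 CPM and those with LGE markers 35.8 and 59.9 CPM. Sox6, which is needed for the positioning and maturation of MGE-derived interneurons, was higher in MGE-type than in CGE-type neurons by 1.89 ± 0.12 (adjusted p = 1.07e-06). Thinned Sox6 UMIs were found in 75.7% (71.7 to 79.3%) and 22.5% (18.5 to 27.0%) of their cells. In the 55 and 45 MGE-type cells with an Sst UMI, Sox6 measured 1448 and 1622 CPM, which overlapped with the level of all MGE-type neurons.

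Sox5 was lower in MGE-type neurons, at 249 and 204 CPM against 618 and 560 CPM (-1.37 ± 0.14; adjusted p = 7.18e-05). It was lower still in those with an Sst UMI, at 81.1 and 83.1 CPM, a value given without a test. In both libraries, LGE-type neurons had smaller shares of cells with a thinned Sox5 UMI than CGE-type neurons. Against MGE-type neurons their Sox5 share was smaller in WT replicate 1 but nearly equal in WT replicate 6. For Sox6 the share of LGE-type neurons was below both other subsets in both libraries. These shares are also given without a test. Sox9 was also lower in MGE-type neurons, at 12.4 and 4.31 CPM against 33.4 and 50.3 CPM (-2.30 ± 0.41; adjusted p = 0.00349), with within-library values of -1.40 and -3.39. Of 7 members tested, 1 was higher and 2 were lower, where 4.55% of 9480 genes were called higher and 4.05% lower. With the library block, Sox11 (0.31 ± 0.06; adjusted p = 0.0223) and Sox4 (-0.30 ± 0.06; adjusted p = 0.0413) were called as well, which gave 5 members in place of 3.

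**Figure D5:**
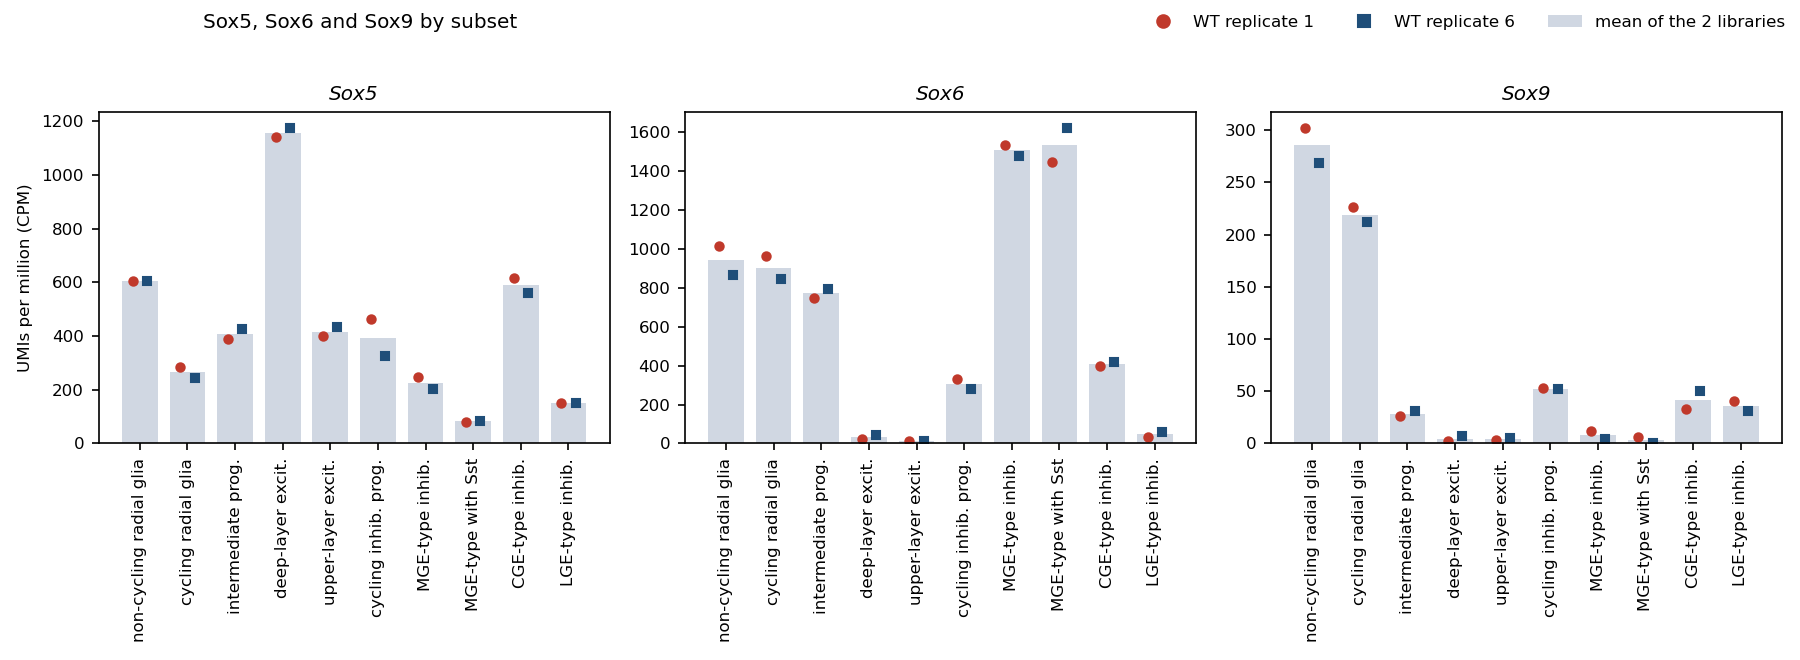
Level of Sox5, Sox6 and Sox9 in CPM (linear axes that differ between genes) in subsets of radial glia and neurons, with a point for each library and a bar for their mean; MGE-type cells with an Sst UMI are a subset of the MGE-type class. Sox5 was highest in deep-layer excitatory neurons, Sox6 in MGE-type inhibitory neurons and Sox9 in radial glia.

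Sox5 was lower in cycling than in non-cycling radial glia, at 284 and 245 CPM in cycling against 607 and 604 CPM in non-cycling radial glia (-1.18 ± 0.16; adjusted p = 2.95e-05). A thinned Sox5 UMI was found in 22.0% (17.2 to 27.7%) and 47.9% (40.8 to 55%) of them. Sox3 was higher in cycling radial glia by 0.79 ± 0.26 (adjusted p = 0.0393). Its levels of 54.3 and 83.7 CPM against 42.6 and 36.4 CPM did not overlap, its within-library values were 0.33 and 1.22, and the call was lost in 5 of the alternatives (adjusted p of 0.065 to 0.326). Sox2, at 333 and 354 CPM against 374 and 315 CPM, overlapped. Thus 1 of 8 members tested was higher and 1 lower, where 9.17% of 9803 genes were called higher and 7.73% lower. With the library block, Sox1 (0.50 ± 0.18; adjusted p = 0.0279), Sox11 (0.41 ± 0.14; adjusted p = 0.0181) and Sox9 (-0.37 ± 0.14; adjusted p = 0.036) were called in addition.

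Oligodendrocyte precursors, the glial cells that later form myelin, differed from radial glia in Sox10, Sox6 and Sox1. Sox10, the SoxE factor that directs oligodendrocyte differentiation, measured 197 and 188 CPM in the precursors, from 54 and 40 UMIs. In radial glia there were 3 UMIs and 0, and the ratio of summed CPM was 322, with an exact 95% counting interval of 107 to 1591 (edgeR adjusted p = 9.54e-08). No Sox10 UMI was seen in intermediate progenitors, cycling inhibitory-lineage progenitors, endothelial cells, microglia or erythroid cells. In intermediate progenitors this allows up to 1.70 and 1.93 CPM, and in endothelial cells up to 3.93 and 5.29 CPM.

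Sox6 reached its highest level of the 7 main classes in the precursors, 1647 and 2258 CPM, and was higher there than in radial glia by 1.14 ± 0.30 (adjusted p = 0.0194). When the classes were taken from clusters instead of markers, this difference was 0.28 ± 0.16 (adjusted p = 0.279). The precursor cluster was mixed, with precursors as 65.3% of its cells that had a marker class. In the radial glia clusters, radial glia made up 63.0% and 98.0% of such cells. Sox1 fell to 1 UMI in each library, and its summed CPM was 24.2-fold lower than in radial glia (exact 95% counting interval 6.67 to 200.5; edgeR adjusted p = 4.62e-05). Sox2 stayed at 237 and 296 CPM, Sox3 at 51.0 and 51.7 CPM and Sox9 at 251 and 226 CPM, and the last 2 overlapped with radial glia. Of 9 members tested, 2 were higher and 1 lower, where 7.76% of 10676 genes were called higher and 6.46% lower. Sox4 differed by 0.71 ± 0.25 (adjusted p = 0.0773) and was called when all classes shared a single fit, when doublets were kept and when classes came from clusters (adjusted p of 0.00542 to 0.0174). The number of precursor cells limits this comparison.

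Endothelial cells, which line the vessels, carried a different Sox gene. Sox17, a SoxF factor of arterial vessels, measured 188 and 233 CPM there from 144 and 132 UMIs, against 0 UMIs and 1 in radial glia. The ratio of summed CPM was 1038 (exact 95% counting interval 185 to 41165; edgeR adjusted p = 9.71e-11). The neural members were low: over both libraries, Sox2 and Sox1 had 3 UMIs each, 149.7-fold (51.1 to 727) and 44.1-fold (15 to 215) below radial glia, and Sox3 had none, at least 25.1-fold below radial glia against a floor of 3 UMIs over both libraries. Sox6 (-4.01 ± 0.33; adjusted p = 1.65e-07), Sox5 (-3.26 ± 0.23; adjusted p = 3.85e-08), Sox9 (-3.00 ± 0.26; adjusted p = 3.02e-07) and Sox11 (-1.44 ± 0.18; adjusted p = 1.09e-05) were lower as well. The within-library values were -3.52 and -5.12 for Sox6 and -2.53 and -3.95 for Sox9. Sox4 differed by -0.28 ± 0.16 (adjusted p = 0.156) and, with classes taken from clusters, by -1.16 ± 0.16 (adjusted p = 0.000208). In the radial glia clusters, radial glia were 63.0% and 98.0% of the cells that had a marker class. Of 9 members tested, 1 was higher and 7 lower, where 24.9% of 11446 genes were called higher and 26.8% lower. The summed radial glia markers were 103 and 96.9 CPM in endothelial cells.

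The order of the 7 main classes can be read from these levels for each gene. Sox2 was highest in radial glia and cycling inhibitory-lineage progenitors, which overlapped, followed by oligodendrocyte precursors, inhibitory neurons, intermediate progenitors, excitatory neurons and endothelial cells without overlap. Sox11 ran from excitatory neurons through cycling inhibitory-lineage progenitors, inhibitory neurons and intermediate progenitors to radial glia and oligodendrocyte precursors, and of these only the last 2 overlapped. For Sox5, excitatory neurons stood above the rest, the precursors came second at 477 and 630 CPM, and intermediate progenitors, radial glia and cycling inhibitory-lineage progenitors overlapped. For Sox9, radial glia overlapped with oligodendrocyte precursors at the top. Cycling inhibitory-lineage progenitors followed, and intermediate progenitors, inhibitory neurons and endothelial cells overlapped below them.

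The 9 other Sox genes examined were Sox7, Sox8, Sox12, Sox13, Sox14, Sox15, Sox18, Sox21 and Sox30. Sox8 (SoxE) and Sox21 (SoxB2, a repressor) were higher in radial glia than in intermediate progenitors, by 2.0 ± 0.29 (adjusted p = 0.000372) and 1.63 ± 0.17 (adjusted p = 3.34e-05), as was the SoxD gene Sox13, by 2.31 ± 0.43 (adjusted p = 0.00184). These were 3 of 4 tested, where 19.1% of all genes were called higher, and Sox12 was not called. Sox12, the third SoxC gene, was higher in excitatory neurons than in intermediate progenitors (-1.25 ± 0.11; adjusted p = 4.15e-05) and lower in deep-layer than in upper-layer neurons (-0.38 ± 0.11; adjusted p = 0.0422). Sox8 was higher in oligodendrocyte precursors than in radial glia by 1.30 ± 0.32 (adjusted p = 0.0141) and Sox21 lower by -1.09 ± 0.34 (adjusted p = 0.0459). The SoxF genes Sox7 and Sox18 measured 98.2 and 111 CPM and 118 and 204 CPM in endothelial cells, at least 173-fold and 258-fold above radial glia, which had no UMI of either. Sox14 had no UMI in any class, and Sox15 and Sox30 had at most 1.77 and 3.33 CPM. Between inhibitory and excitatory neurons 5 were tested, with 3 higher and 1 lower, where 20.9% of all genes were called higher and 21.3% lower. Between endothelial cells and radial glia 6 were tested, with 3 higher and 3 lower, where the shares of all genes were 24.9% and 26.8%.

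Partners and reported targets of Sox proteins were examined as 9 further genes. The POU factors that bind beside Sox2 or Sox11 did not follow a common course. Pou3f1 rose with the SoxC genes, from 5.64 and 9.78 CPM in radial glia to 109 and 124 CPM in intermediate progenitors and 212 and 224 CPM in excitatory neurons. Pou3f2 was highest in intermediate progenitors, at 397 and 435 CPM. Pou3f4 was higher in inhibitory than in excitatory neurons by 2.70 ± 0.10 (adjusted p = 3.11e-07). Pou3f3 was lower in deep-layer than in upper-layer neurons (-1.36 ± 0.09; edgeR adjusted p = 1.72e-06). In cycling inhibitory-lineage progenitors it was higher than in inhibitory neurons, by 0.63 ± 0.11 (edgeR adjusted p = 0.000704).

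Nes, which encodes an intermediate filament of progenitors and carries an enhancer bound by Sox2, was higher in radial glia than in intermediate progenitors by 2.41 ± 0.14 (adjusted p = 5.56e-07). Between inhibitory and excitatory neurons the difference of Nes was -0.01 ± 0.15 (adjusted p = 0.954). Tubb3, a neuronal tubulin gene and SoxC target, measured 85.4 and 83.8 CPM in radial glia, 249 and 256 CPM in intermediate progenitors and 1141 and 1153 CPM in excitatory neurons. Nfia, a gliogenic factor that acts with Sox9, measured 1504 and 1448 CPM in radial glia and 1367 and 1507 CPM in intermediate progenitors, which overlapped. Bcl11b, a factor of deep-layer and striatal neurons, was higher in inhibitory than in excitatory neurons by 1.85 ± 0.07 (adjusted p = 3.62e-07). Of the 9, the numbers called higher and lower were 1 and 5 between radial glia and intermediate progenitors, 3 and 3 between intermediate progenitors and excitatory neurons, and 2 and 5 between inhibitory and excitatory neurons. Over all genes the shares called higher and lower were 19.1% and 15.8%, 23.6% and 25.9%, and 20.9% and 21.3% in these comparisons.

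The genes whose level was most like that of each member were sought over 11 classes, among 6700 genes with at least 50 CPM in 1 of them, by Pearson's r of log2(CPM + 10). The classes share their libraries, so r is a description. For Sox1 the closest was its host gene Sox1ot (r = 0.95), followed by Rnf13 (0.93) and Nhlrc2 (0.93). For Sox2 they were Tex9 (0.93), Kdm3a (0.92) and Zfr (0.91). For Sox3 they were Kcnj10 (0.98), which encodes a glial potassium channel, Fabp7 (0.98), a fatty acid binding protein of radial glia, and Pdcd5 (0.97).

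Sox4 and Sox11 were close to each other (r = 0.96 between them). For Sox4 the genes were Gdpd1 (0.98), Rnf165 (0.97) and Kdm1a (0.97), and for Sox11 they were Zfp90 (0.996), the neuronal RNA-binding gene Elavl3 (0.98) and Rnf165 (0.98). For Sox5 they were A830082K12Rik (0.92), Khdrbs3 (0.89) and Sec61a2 (0.89). For Sox6 they were Kiz (0.92), Gm45025 (0.90) and B230354K17Rik (0.89), and for Sox9 Sall3 (0.97), Psat1 (0.93) and the endothelin receptor gene Ednrb (0.93). Sox10 and Sox17 are each high in 1 class, so that any gene of that class has a high r. For Sox10 they were Gm34923, Nkx2-2, a factor of the oligodendrocyte lineage, and Gm10863, and for Sox17 Aplnr, the apelin receptor gene, Depp1 and Wfdc1.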

How the data were processed

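Single-cell 3' RNA libraries (10x Genomics, version 3.1) of 2 WT embryos were analysed. The authors deposited UMI counts for each gene and cell without normalization, made with Cell Ranger 7.0.0 on build mm10 per the submitters' processing notes. Whether intronic reads were counted was not given in the sources used here, which bears most on the long genes Sox5 and Sox6, and levels were not compared between genes. Positions and promoters are from RefSeq (GRCm38.p6), whose promoter table held 6 of the 10 members.

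Cells were used if they held 1500 to 60000 UMIs with less than 10% from mitochondrial genes, and 920 and 857 likely doublets (Scrublet in scanpy 1.11.5, a rate of 0.8% per 1000 cells) were left out. A class needed UMIs of at least 3 of its 6 markers (5 in erythroid cells) and 2 more than any other class, but oligodendrocyte precursors needed no lead over radial glia and intermediate progenitors needed an Eomes UMI. Sums per library and class were tested with edgeR 4.0.16 (glmQLFit and glmQLFTest, two-sided, TMM scaling, filterByExpr), and DESeq2 1.42.0 was an alternative. Named genes were all members, 9 other Sox genes, 9 partners or targets and the 3 genes most like each member. The values of 1 target gene are not reported here. Members and lists were chosen with earlier results of these data known. Each library gave cells to both classes compared, and a fit with a library block was an alternative; same-library deviations from the class means had r of 0.06 to 0.34. In simulated data, the test between radial glia and intermediate progenitors (10713 genes) recovered 70% of changes of 1 and 100% of changes of 2 on the log2 scale, and that between oligodendrocyte precursors and radial glia (10119 genes) 46% and 96%. The libraries differed from each other by more than sampling noise (chi-square per degree of freedom 26.9).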

Additional observations from a re-analysis of the deposited data

Results flagged for a closer look

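The change from progenitor to neuron differed between the excitatory and the inhibitory lineage for 7 members, by edgeR's test of the difference itself. The values, as the change in the inhibitory lineage minus that in the excitatory lineage on the log2 scale, were 5.59 for Sox6, 3.68 for Sox2, 3.02 for Sox1, 2.51 for Sox3, 1.46 for Sox9, -1.27 for Sox5 and -1.01 for Sox11. Both libraries gave the same direction for each of them. For Sox6 the within-library values were 5.53 and 5.66, for Sox2 3.63 and 3.71 and for Sox3 1.94 and 2.86. The progenitors of the inhibitory lineage were cells with inhibitory neuron markers and at least 2 cycling markers, while those of the excitatory lineage were chosen by intermediate progenitor markers including Eomes, so that the lineage and the state of its progenitors cannot be told apart. All inhibitory neurons were summed, including those in no subset, and in LGE-type neurons Sox6 was below the cycling progenitors. Groups of 2 libraries are too small for a test of single outlying samples.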

How the results depend on the processing

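With 2 libraries, leaving out 1 leaves the difference within the other library, with no test. The library block gave 5 members in place of 3 between MGE-type and CGE-type neurons and 5 in place of 2 between cycling and non-cycling radial glia, where over all genes it called 399 higher and 350 lower (main 431 and 384) and 1187 and 1044 (main 899 and 758). It changed no member's call elsewhere except Sox6 (radial glia against intermediate progenitors), Sox4 (intermediate progenitors against excitatory neurons) and Sox5 (inhibitory lineage), given in the report. In cycling against non-cycling radial glia, DESeq2, all classes in a single fit, doublets kept, stricter cell filters (3000 to 30000 UMIs, under 5% mitochondrial) and stricter gates (at least 4 markers, lead of 3) each gave 1 member in place of 2. The member counts of the other comparisons stayed within 1.5 times.

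The differences that turned in sign had not been called in the main test. Between oligodendrocyte precursors and radial glia, Sox9 turned to -0.0856 with no filter on low counts, -0.0564 with all classes in a single fit, -0.0045 with doublets kept, -0.0736 with stricter cell filters, -0.11 with stricter gates, -0.44 (adjusted p = 0.0475) with classes from clusters and -0.23 with non-cycling radial glia only. Sox11 turned to 0.27 with doublets kept, 0.13 with clusters and 0.0314 with non-cycling radial glia only, where Sox3 was 0.40 and Sox5 -0.11. Between radial glia and intermediate progenitors, Sox5 was 0.59 with non-cycling radial glia only. Between deep and upper layers, Sox1 was -0.14 with stricter cell filters, Sox11 0.0838 and Sox9 -0.0779 with stricter gates, and Sox9 -0.0305 with doublets kept. In cycling against non-cycling radial glia, Sox2 was 0.0052 with DESeq2, 0.0050 with DESeq2 size factors, 0.0606 with no filter, 0.0022 with the library block, 0.0472 with stricter gates and 0.0065 without shared barcodes, and Sox6 was 0.0082 with no filter and 0.0216 with doublets kept. The cause was not tested.

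Over all genes, DESeq2 called 227 higher and 197 lower between MGE-type and CGE-type neurons (edgeR 431 and 384), 436 and 217 in cycling against non-cycling radial glia (edgeR 899 and 758), 1370 and 1000 between radial glia and intermediate progenitors (edgeR 2209 and 1828) and 878 and 340 between deep and upper layers (edgeR 1333 and 660). It called 2318 and 2130 between inhibitory and excitatory neurons (edgeR 3274 and 3332), 2210 and 1997 within the inhibitory lineage (edgeR 3058 and 3112) and 620 and 393 between oligodendrocyte precursors and radial glia (edgeR 828 and 690). For these precursors the counts were 1025 and 1259 with clusters, 939 and 1055 with all classes in a single fit, 886 and 1059 with no filter and 621 and 445 with stricter cell filters. Between deep and upper layers they were 1778 and 1218 with the library block, 1501 and 993 with no filter and 1011 and 425 with all classes in a single fit. Stricter gates gave 628 and 492 in cycling against non-cycling radial glia. For the difference between lineages (main 1378 and 1424) the counts were 976 and 2072 with no filter, 1960 and 2363 with clusters and 916 and 1404 with stricter gates. Without a filter the median of all genes lay between -0.42 and 0.11. Clusters gave no subsets of radial glia or neurons. The precursor cluster and 1 of the radial glia clusters were mixed. Their own class made up 65.3% and 63.0% of their cells that had a marker class. With each library alone or log2(CPM + 1), as few as 0 or 1 of the 3 genes most like a member remained, for Sox17 0 in either library, so those names are unstable. The few cells limit the values of oligodendrocyte precursors.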

Other observations

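Pairs of Sox genes seen in the same cell, after thinning to 1500 UMIs, are given here as percentages of cells in WT replicate 1 and WT replicate 6, without a test. Sox2 and Sox11 were found together in 33.5% and 29.3% of cycling inhibitory-lineage progenitors and in 14.4% and 15% of radial glia, against 0.757% and 1.24% of excitatory neurons. Sox5 and Sox6 were found together in 24.7% and 24.5% of radial glia and 41.4% and 50% of oligodendrocyte precursors, against 2.11% and 1.98% of excitatory neurons. Sox2 and Sox9 were found together in 14.8% and 12.3% of radial glia. Sox9 and Sox10 were found together in 3.45% and 9.09% of the 29 and 22 oligodendrocyte precursors.

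The levels of Sox1 and Sox9 in the inhibitory subsets are given without a test for LGE-type neurons. Sox1 measured 136 and 110 CPM in MGE-type, 81.7 and 109 CPM in CGE-type and 35.8 and 54.5 CPM in LGE-type neurons, and its difference between MGE-type and CGE-type neurons was not called (0.37 ± 0.18; edgeR adjusted p = 0.315). Sox9 measured 40.5 and 31.3 CPM in LGE-type neurons, which overlapped with CGE-type neurons.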
